A study of Homo sapiens with 30 samples.

Results

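Nuclear RNA of day 8 cardiomyocyte cultures was compared between 3 libraries labelled QKI knockout (KO) and 3 labelled wild type (WT), which are 6 of the 30 samples of the series. All 55548 genes of the nuclear count table entered, and symbols came from matching Ensembl identifiers. The cells were Hues6, an established human embryonic stem cell line, differentiated towards cardiomyocytes for 8 days. WT cultures received CHIR, which blocks GSK3 and so turns on the WNT pathway, at 1.5 uM, and KO cultures at 1.25 uM. Both genotypes received 1.5 ng/mL BMP4 and then C59, an inhibitor of WNT secretion, so the CHIR dose and the genotype cannot be told apart. The labels give neither the KO allele, the number of clones, the method of isolating nuclei nor whether libraries came from separate cultures. The p-values therefore reflect the spread between these libraries alone, which may be technical. The other samples compared here are 3 WT and 3 KO whole-cell libraries of the same day. The whole-cell fit also took in the WT and KO whole-cell libraries of the earlier days, which share its estimate of spread.

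QKI is an RNA-binding protein of the STAR family. It binds short motifs in introns and mature transcripts, controls exon inclusion in muscle, heart and glia, and takes part in mRNA stability and circular RNA formation. Nuclear RNA holds unspliced and newly made transcripts, long noncoding RNAs that stay in the nucleus, and the small RNAs of the nucleolus, so it lies closer to transcription and processing than whole-cell RNA does.

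A large share of the nuclear counts belonged to 3 small noncoding RNAs known to carry no poly(A) tail, although the labelled protocol is poly(A) enrichment. They are SNORD3A, which is the U3 small nucleolar RNA of ribosomal RNA processing, RMRP, the RNA of RNase MRP, and 7SK, which holds the elongation factor P-TEFb inactive. Their transcript models in GENCODE 29 (GRCh38) lie at chr17:19188016-19188233 (+ strand), chr9:35657751-35658018 (- strand) and chr6:52995620-52995950 (+ strand), each a noncoding exon. The first and second are shown because they dominate the noncoding counts; capitals mark the longest runs of A, which are 4 bases in SNORD3A and 3 in RMRP. The longest run in 7SK, which is 331 bases long, is also 3.
SNORD3A: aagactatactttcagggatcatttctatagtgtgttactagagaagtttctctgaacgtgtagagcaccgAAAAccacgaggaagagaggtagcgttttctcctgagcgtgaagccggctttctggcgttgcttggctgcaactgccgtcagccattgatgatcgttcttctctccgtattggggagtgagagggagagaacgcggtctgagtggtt
RMRP: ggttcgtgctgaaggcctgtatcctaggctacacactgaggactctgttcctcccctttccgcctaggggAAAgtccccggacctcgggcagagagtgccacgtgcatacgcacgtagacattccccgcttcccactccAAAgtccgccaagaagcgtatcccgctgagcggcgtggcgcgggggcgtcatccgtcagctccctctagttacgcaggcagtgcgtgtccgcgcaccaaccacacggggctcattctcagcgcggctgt

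SNORD3A held 28.1, 21.9 and 21.3% of all counts in the WT libraries and 12.1, 14.4 and 11.5% in those labelled KO. The groups did not overlap as shares of counts, but on the scaled values of the fit the gene was not called (log2 fold change -0.48, SE 0.68, edgeR adjusted p 0.53). RMRP held 4.74, 5.2 and 4.7% in WT and 1.64, 1.71 and 1.27% in KO. It was called lower (log2 fold change -1.22, SE 0.43, edgeR adjusted p 0.015), and the call was lost without KO replicate 1 (-1.11, edgeR adjusted p 0.11) or KO replicate 3 (-1.06, edgeR adjusted p 0.16). 7SK held 3.63, 2.94 and 3.04% in WT and 3.34, 2.74 and 2.67% in KO, so its groups overlapped. In the day 8 whole-cell libraries none of the 3 exceeded 0.00174% of counts. Protein-coding genes held 57.1% ± 3.63 of WT counts and 72.7% ± 1.17 of KO counts (SD, n = 3), against 88.5 to 90.9% in whole-cell RNA.

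**Figure D1:**
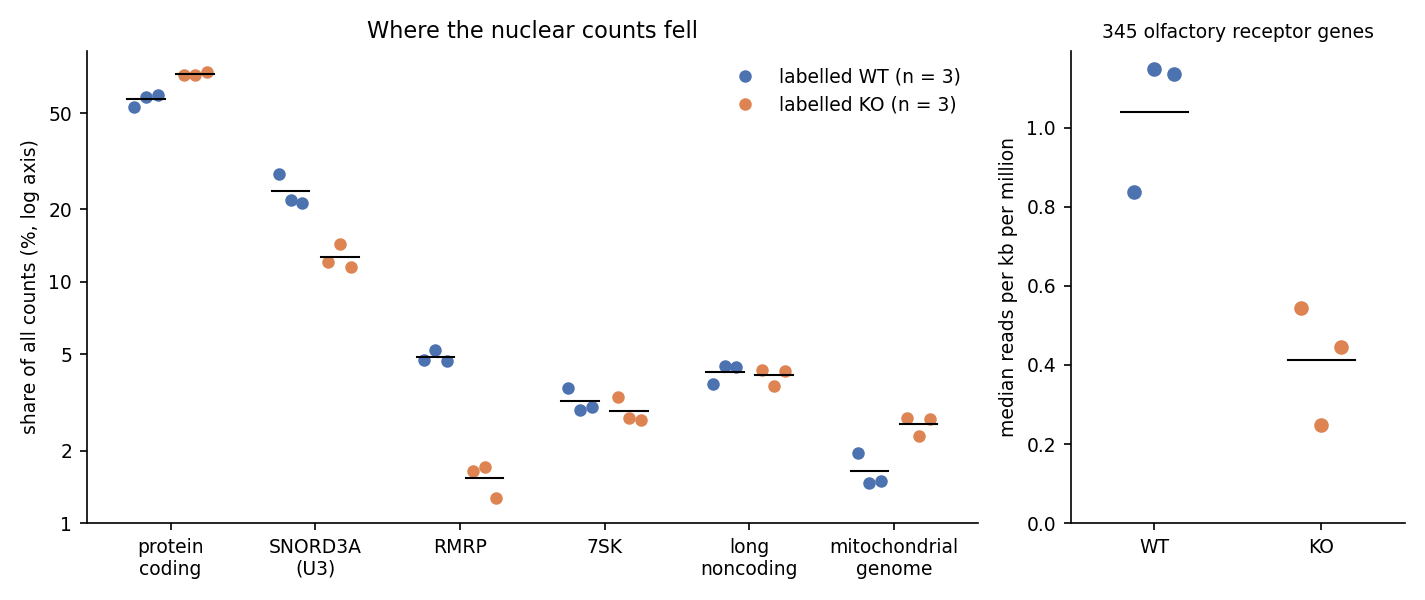
Left, share of all counts (percent, log axis) for 6 gene classes in each nuclear library; right, median reads per kilobase, scaled to library size as for CPM, over 345 olfactory receptor genes (linear axis from 0). Points are libraries and lines the group means: SNORD3A and RMRP take a smaller share, and coding genes a larger one, in the libraries labelled KO, where the olfactory receptor genes hold between 0.249 and 0.544 against 0.838 to 1.149 in WT.

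The nuclear libraries also held a low even cover of genes that heart cells do not use. Olfactory receptor genes, which are expressed in the nasal epithelium, had at least 1 count in 340 to 345 of 345 cases in every nuclear library. Their median density, in reads per kilobase scaled to library size as for CPM, was 0.838, 1.149 and 1.134 in WT and 0.544, 0.249 and 0.446 in KO. Extended over the exons of all coding genes, this density equals 15.76, 19.53 and 18.9% of coding counts in WT and 7.52, 3.44 and 6% in KO. The background therefore moved with genotype, and so did depth, with 6549676 to 8896202 counts per WT library and 9882089 to 15030590 per KO library. Among the KO libraries, replicate 2 stood apart: it had the lowest background and the highest AFP and GABRP levels of its group, and values that changed by over 1.5 times without it are given both ways for the genes described. WT replicates 2 and 3 differed from each other by little more than sampling noise (chi-square per gene 1.22, against 2.91 to 11.5 for the other pairs) and were kept as separate samples.

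QKI (ENSG00000112531.12, chromosome 6) was reported first as the check of the labels, and it was not lower in the libraries labelled KO. Its level was 187, 139 and 152 CPM (counts scaled to the library's TMM-adjusted total) in the WT libraries and 473, 534 and 509 in those labelled KO. All 3 KO-labelled libraries were above all 3 WT libraries. The log2 fold change was 1.66 (SE 0.17, edgeR adjusted p 7.9e-10), and 1.03 after background subtraction (SE 0.10, edgeR adjusted p 1.1e-05). In day 8 whole-cell RNA no difference was called, at 324 ± 41.9 CPM in WT and 335 ± 5.3 in KO (SDs of 3 libraries; log2 fold change 0.05, edgeR adjusted p 0.66), and the difference between fractions was itself called (1.34, SE 0.15, edgeR adjusted p 5.1e-08). Gene counts do not show which part of the transcript was read, so they do not test whether the protein was lost. Every direction below is that of the libraries labelled KO against those labelled WT.

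Of 30481 genes tested with edgeR's quasi-likelihood test, 19515 were called at an adjusted p under 0.05 (64%), 9508 higher in KO (31.2%) and 10007 lower (32.8%). At least a 2-fold change was seen in 3037 higher and 4468 lower genes. The direction depended on abundance. Genes under 2 CPM had a median log2 fold change of -0.77, with 2.28% called higher and 42.8% lower. Genes of 30 to 100 CPM had a median of 0.82, with 88% called higher and 2.56% lower. The split also depended on scaling: higher genes were 48.7% of calls with TMM factors, 25.6% of 20266 calls with total counts and 90.8% of 11049 calls in DESeq2. Total counts moved the median of all genes from -0.27 to -0.72.

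A second fit, added after seeing the data, subtracted the olfactory receptor density from each coding gene by its exon length. It tested 15355 genes and called 8693 (56.6%), 4405 higher (28.7%) and 4288 lower (27.9%). Its median over genes of 30 to 100 CPM was 0.26 and over genes of 10 to 30 CPM -0.00. In all, 7126 genes were called the same way in both fits (46.4%), 4319 higher (28.1%) and 2807 lower (18.3%), and 222 were called in opposite directions. Below, "rose" and "fell" are kept for genes called the same way in both fits, unless a noncoding gene is named as tested in the first fit alone. A gene at background in both groups drops out of the second fit and one at background in WT can enter it through KO, so counts over both fits do not cover whole lists. A further fit used only the 4783 coding genes at 10 or more times background over all nuclear libraries together, scaled on themselves. A gene can pass this filter through the group where it is high. The fit called 2844 (59.5%), 1414 higher (29.6%) and 1430 lower (29.9%).

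**Figure D2:**
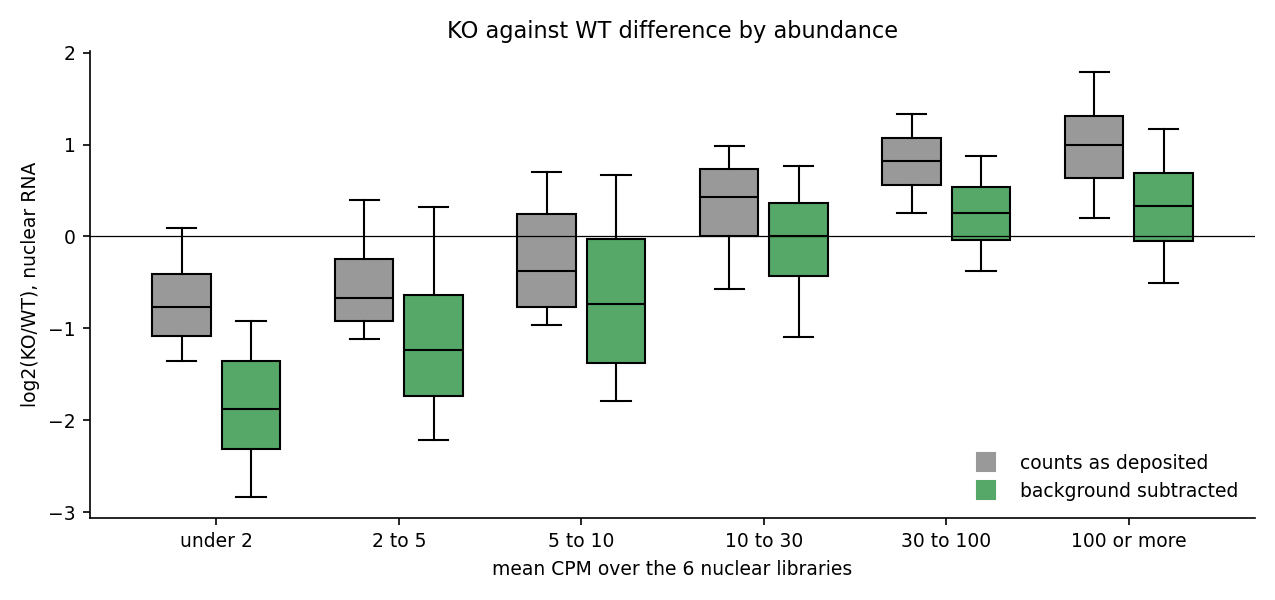
Log2 fold change of KO against WT in nuclear RNA by mean CPM over the 6 nuclear libraries, for counts as deposited (grey) and for coding genes after background subtraction (green). Boxes span the quartiles with the median and whiskers the 10th to 90th percentiles; the grey medians run from -0.77 under 2 CPM to 1.00 at 100 CPM or more, and the green ones from -1.88 to 0.33.

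Groups did not overlap for 67.8% of the genes tested. The 15 highest fold changes among such called genes of at least 10 CPM included SPINK1, AFP, apolipoproteins and KDR. SPINK1, a trypsin inhibitor, stood at 1.68, 3.2 and 2.61 CPM in WT and 59.9, 130 and 52 in KO (log2 fold change 5.02, SE 0.28, edgeR adjusted p 2.4e-15). AFP, the fetal serum protein alpha-fetoprotein, stood at 6.16, 8.63 and 9.41 in WT and 156, 376 and 141 in KO (4.79, SE 0.27, edgeR adjusted p 3.5e-15). Both rose, and KO replicate 2 was highest for each; without it the changes were 4.49 and 4.20. The apolipoprotein genes APOA1 (3.68) and APOA2 (3.58), the protease inhibitor SERPINA1 (3.49) and the fibrinogen chain FGB (3.28, or 2.62 without KO replicate 2) also rose, as did HKDC1 (3.69), a hexokinase family member. KDR, the VEGF receptor of vascular and early cardiac mesoderm, was evenly higher, from 38.4, 26.5 and 27.2 CPM in WT to 418, 467 and 454 in KO (3.86, SE 0.18, edgeR adjusted p 3.8e-17).

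Several other high genes were more even between KO libraries. RSPO3, a secreted enhancer of WNT signalling, rose from 7.28, 6.53 and 6.38 CPM to 62.2, 66.4 and 67.7 (log2 fold change 3.28). HAS2, the hyaluronan synthase of cardiac jelly, rose from 10.6, 8.88 and 9.72 CPM to 87.6, 100 and 90.6 (3.25). PALM2 (3.44), the serine protease gene PRSS42 (3.76) and FMOD, the collagen-binding proteoglycan fibromodulin, rose too, the last from 4.93, 3.33 and 4.81 CPM to 24.4, 60.3 and 20.2 (2.34 without KO replicate 2). PRSS44, a serine protease pseudogene, was called higher in the first fit (3.28). NEAT1, the long noncoding RNA that builds paraspeckles, stood at 246, 268 and 286 CPM in WT and 1928.9, 2757.1 and 2120.6 in KO (3.09, SE 0.22, edgeR adjusted p 6.4e-13, first fit alone).

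The 15 lowest fold changes held 8 replication-dependent histone genes. The most extreme value belonged to RN7SL471P, a 7SL pseudogene, at 45.8, 78.5 and 78.1 CPM in WT and 0.223, 0.175 and 0.191 in KO; reads of near-identical 7SL copies can be split between them, so this value is uncertain. CHCHD2, a mitochondrial protein that also acts in the nucleus, fell from 31.7, 35.4 and 37.2 CPM to 3.12, 1.83 and 2.38 (log2 fold change -3.85, SE 0.18, edgeR adjusted p 2.2e-17). TNC, the matrix glycoprotein tenascin C, fell from 380, 274 and 298 CPM to 37.6, 68.6 and 34.8 (-2.75, SE 0.20, edgeR adjusted p 7.5e-13). PDGFRB, the PDGF receptor of mural cells, fell from 57.9, 58.8 and 62.1 CPM to 10.5, 9.61 and 6.58 (-2.75). NTRK2, a neurotrophin receptor, fell by 2.73 on the log2 scale, GAS1, a hedgehog co-receptor, by 2.62 and LPL, lipoprotein lipase, by 2.41.

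**Figure D3:**
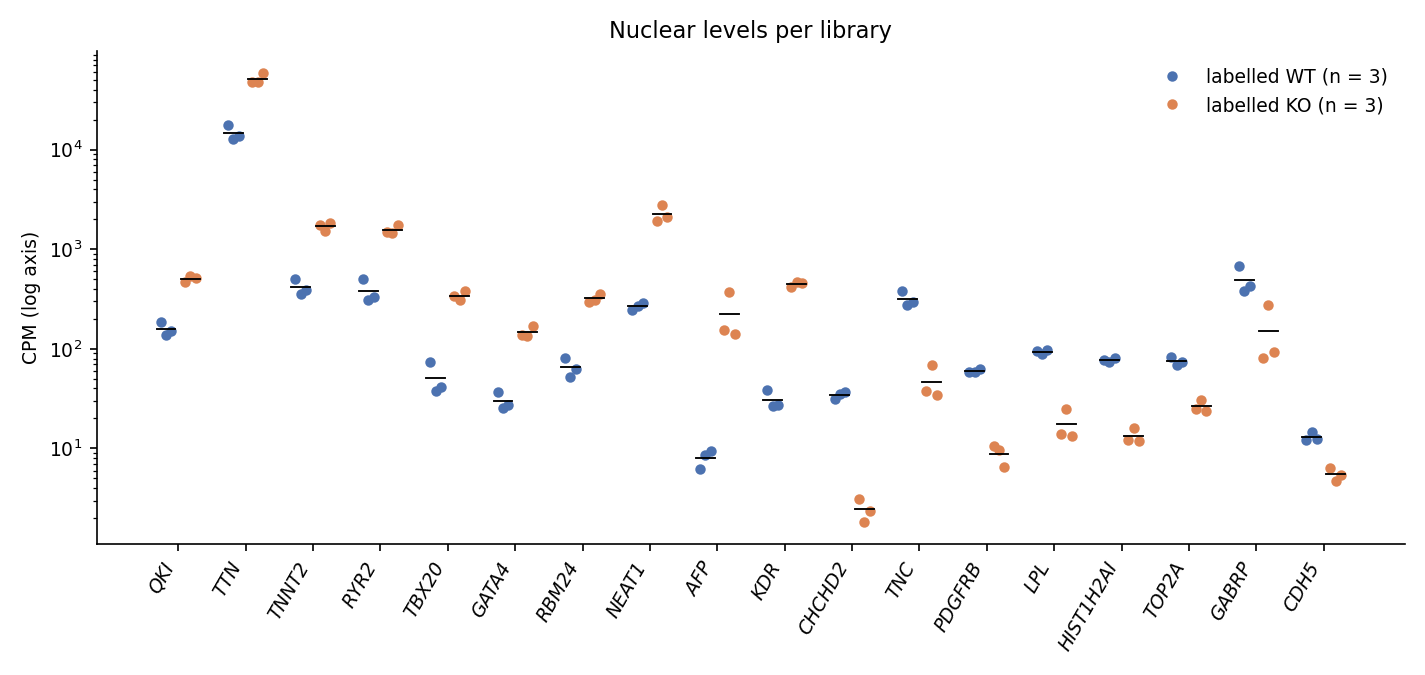
CPM (log axis) of 18 genes in each nuclear library, with points for libraries and lines for the means of 3. The groups do not overlap for any of the 18, and KO replicate 2 is the high point of its group for AFP, TNC, LPL and GABRP.

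Cardiomyocyte genes were mostly higher in the libraries labelled KO. TNNT2, cardiac troponin T and a defining marker, stood at 501, 359 and 394 CPM in WT and 1747.1, 1535.2 and 1849.4 in KO (log2 fold change 2.03, SE 0.21, edgeR adjusted p 9.2e-10). TTN, the sarcomere spring titin, stood at 17623.4, 12698.2 and 13565.8 CPM in WT and 47865.2, 48049.7 and 58574.9 in KO (1.82, SE 0.44, edgeR adjusted p 0.00087). Of 36 sarcomere genes, 31 were called higher and 2 lower in the first fit. Their median was 1.81, beside 1.00 over all genes of at least 100 CPM, of which 84.5% were called higher. Of 35 tested in both fits 24 rose and 2 fell, and at 10 times background 23 were called higher and 3 lower of 29 (median 1.01), beside 29.6% and 29.9% of all genes there. MYH7, the slow myosin heavy chain (2.40), ACTC1, cardiac actin (2.43), MYH6, the atrial myosin heavy chain (1.86), and MYL7, the atrial light chain (2.01), all rose. MYOM3, an M-band protein, fell by 1.00 on the log2 scale. The list's median stayed positive under every alternative run, and fewer cells of a type and less RNA per cell cannot be told apart in bulk libraries.

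Calcium handling and ion channel genes followed the same direction, with 18 that rose and 3 that fell of 26 tested in both fits (first-fit median 1.47). Counts in this and later lists stand beside 28.1% that rose and 18.3% that fell over all genes tested in both fits. RYR2, the calcium release channel, stood at 500, 308 and 333 CPM in WT and 1507.4, 1454.9 and 1755.3 in KO (log2 fold change 2.05). SLC8A1, the sodium-calcium exchanger (2.34), HCN4, the pacemaker channel (2.32), GJA1, connexin 43 (2.26), PLN, the inhibitor of the calcium pump (1.81), and ATP2A2, the pump itself (1.58), rose. CACNA1G, a T-type calcium channel, fell from 19.4, 20.3 and 19.7 CPM to 11.6, 7.86 and 9.92 (-1.03). Of 22 energy metabolism genes 14 rose and 2 fell, among the former FABP3, a fatty acid carrier (2.02), CKM, muscle creatine kinase (1.89), and PPARGC1A, a regulator of mitochondrial genes (1.68).

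Cardiac transcription factors were split by gene. Of 29 tested in both fits, 19 rose and 5 fell (first-fit median 1.24), beside 28.1% and 18.3% over all genes. TBX20, a T-box factor of the chambers, stood at 73.1, 38.1 and 41.1 CPM in WT and 337, 308 and 377 in KO (log2 fold change 2.74, SE 0.19, edgeR adjusted p 4e-13). GATA4 (2.30), NKX2-5 (1.74) and TBX5 (1.37), core factors of cardiac specification, rose. ISL1, a factor of second heart field progenitors, was lower by a small amount, 17.8, 17.3 and 15.4 CPM in WT and 12.2, 15 and 12 in KO (-0.35, edgeR adjusted p 0.033), and the call was lost on leaving out any of KO replicates 1 and 3 and WT replicates 1 and 2 (-0.21 to -0.38). NR2F2, an atrial factor, had a log2 fold change of -0.58 that was lost without KO replicate 1 (-0.38), KO replicate 3 (-0.39) or WT replicate 1 (-0.42) and was -0.94 without KO replicate 2. Secreted cardiac factors held 7 that rose and 1 that fell of 13; NPPA, atrial natriuretic peptide, rose from 26.9, 43.1 and 42.6 CPM to 170, 230 and 152 (2.29), NPPB by 2.82 (1.94 without KO replicate 2), and ANKRD1, a stretch-responsive factor, by 2.10.

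**Figure D4:**
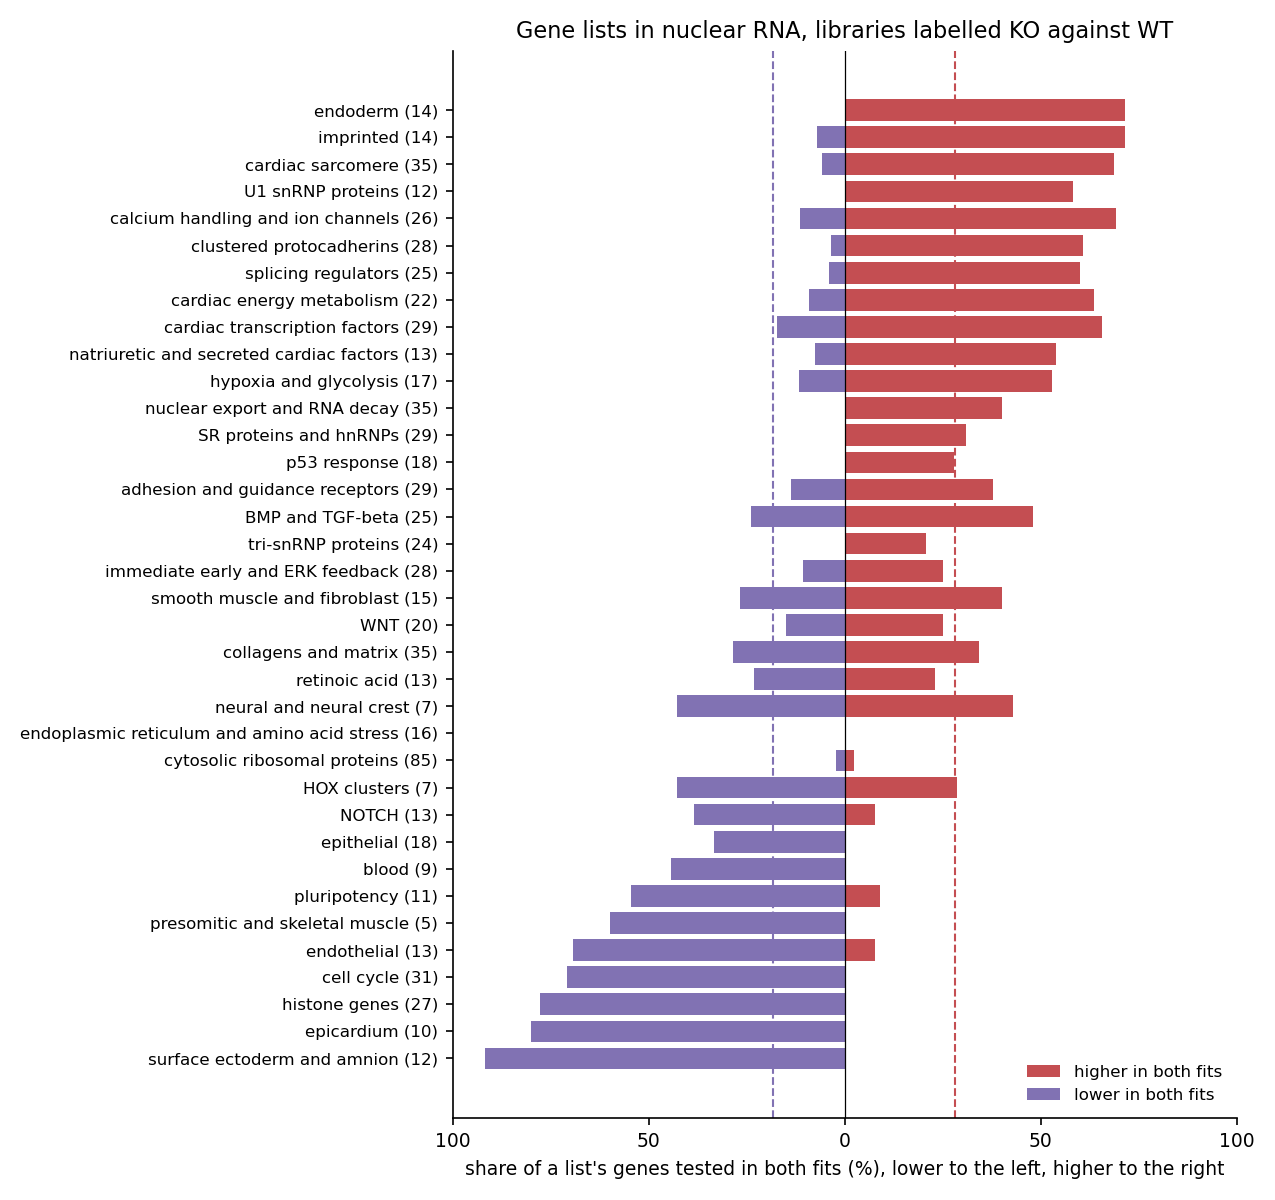
Share of each list's coding genes tested in both fits (number in brackets) that rose, to the right, or fell, to the left, in the libraries labelled KO. Dashed lines give the same shares over all 15355 genes, 28.1% higher and 18.3% lower; endoderm and sarcomere lists lie far to the right, and surface ectoderm, epicardium, histone and cell cycle lists far to the left.

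Markers of other cell types moved in both directions. Of 20 endoderm genes, 11 were called higher and 4 lower in the first fit (median 0.97), and 11 higher and 2 lower without KO replicate 2 (0.77). Of the 14 that could also be tested after subtraction, 10 rose and none fell. At 10 times background 5 remained and were called higher. A gene can reach that level mainly through its KO counts, so this is not read as support. TTR, a thyroid hormone carrier, stood at 3.25, 2.96 and 3.66 CPM in WT and 13.4, 19.3 and 11.3 in KO (2.15). APOB rose by 1.99 (1.62 without KO replicate 2), and HNF4A, a hepatic transcription factor, by 0.75, a call lost with total counts (0.27) and among genes of at least 10 CPM (0.08). ALB, albumin, was not called (-0.53, edgeR adjusted p 0.052). The summed level of the list was 111 to 121 CPM in WT and 432 to 952 in KO, and its part in other results was not tested.

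Of 12 surface ectoderm and amnion genes tested in both fits, 11 fell and none rose; the first fit called 13 of 14 lower and DESeq2 3 of 14. GABRP, a GABA receptor subunit of amnion and epithelia, stood at 673, 383 and 427 CPM in WT and 81.3, 278 and 92.7 in KO (log2 fold change -1.71, SE 0.28, edgeR adjusted p 4.5e-06), and at -2.51 without KO replicate 2; DESeq2 gave -1.29 and no call. VTCN1, an immune checkpoint ligand of trophoblast and amnion, fell by 1.41 (-2.08 without KO replicate 2) and TFAP2A, an ectodermal transcription factor, by 1.05. KRT7 was not called, at 36.8, 44.3 and 45.1 CPM in WT and 36.7, 86.4 and 38.9 in KO (log2 fold change 0.37); it was -0.15 without KO replicate 2, and was called higher without KO replicate 1 (0.68) or 3 (0.58). Of 18 epithelial genes 6 fell and none rose. CDH1, E-cadherin, was at 229, 268 and 270 CPM in WT and 260, 499 and 246 in KO, with no call in either fit (0.39 and -0.40); it was -0.01 without KO replicate 2, and was called higher without KO replicate 1 (0.65) or 3 (0.59). KRT18, a simple epithelial keratin, had a log2 fold change of -0.69 that was lost without KO replicate 1 (-0.42) or 3 (-0.53) and was -1.06 without replicate 2; GRHL2, an epithelial factor, changed from -0.83 to -1.25 without replicate 2. The epithelial median was -0.11 and turned positive with DESeq2's size factors (0.04), in DESeq2 (0.25), with no filter (0.10) and without KO replicate 1 (0.07).

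Epicardial genes fell in 8 of 10 cases (first fit 11 of 12 lower, DESeq2 1 of 12), with BNC1, a mesothelial factor, at 28.6, 21.3 and 21.3 CPM in WT and 8.57, 13.7 and 8.1 in KO (log2 fold change -1.22). Endothelial genes fell in 9 of 13, with 12 of 16 called lower in the first fit and 2 of 16 in DESeq2. In whole-cell RNA 11 of 17 were called higher and 1 lower, and 16 interactions were called lower. CDH5, VE-cadherin, went from 12.2, 14.7 and 12.4 CPM to 6.35, 4.72 and 5.44 (-1.26). VWF fell by 1.06 and TEK, the angiopoietin receptor, by 0.93, while KDR was the sole member to rise; at 10 times background KDR alone of the list remained to be tested. CDH5 was at 2.21 times background. Pluripotency genes fell in 6 of 11 (DESeq2 called 3 of 15 lower), among them L1TD1 (-1.91, or -2.55 without KO replicate 2) and LIN28A (-1.17), both RNA-binding proteins of stem cells, and TDGF1, a NODAL co-receptor, rose from 20.9, 14.4 and 15.1 CPM to 64, 73.1 and 65.7 (2.01). Of 9 blood genes 4 fell and none rose, of 5 presomitic and skeletal muscle genes 3 fell and none rose, and of 7 HOX genes 2 rose and 3 fell. The first fit called 6 of 11 blood, 9 of 13 presomitic and skeletal muscle and 15 of 34 HOX genes lower, and 0, 1 and 3 higher. Over all genes 18.3% fell in both fits. In the abundance classes under 10 CPM the first fit called between 42.8 and 52.8% of all genes lower. Of 7 neural genes tested in both fits 3 rose, among them NES, the intermediate filament nestin (1.62), and DCX (1.18), and 3 fell.

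Genes of cell division were lower. Of 31 cell cycle genes, 22 fell and none rose, with a first-fit median of -1.04, and DESeq2 called 18 lower. TOP2A, the mitotic topoisomerase, stood at 83.1, 68.4 and 73.8 CPM in WT and 24.8, 30.8 and 24 in KO (log2 fold change -1.50, SE 0.14, edgeR adjusted p 1.5e-10). AURKB, a mitotic kinase (-1.95), MKI67, the proliferation antigen Ki-67 (-1.32), and CCNB1, cyclin B1 (-1.23), fell. In whole-cell RNA, where 55.6% of all genes tested were called, 29 of 31 were also called lower.

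Replication-dependent histone genes, whose mRNAs are made in S phase and end in a stem-loop in place of a poly(A) tail, were lower as well. Of 57 tested, 49 were called lower and none higher in the first fit (median -1.36), and 21 of 27 fell in both; DESeq2 called 35 of 58 lower and 2 higher. Their summed level was 2737.8 to 3108.6 CPM in WT and 1497.0 to 1841.0 in KO. HIST1H2AI stood at 77.7, 73.3 and 80.2 CPM in WT and 12.2, 16.1 and 11.8 in KO (-2.52, SE 0.14, edgeR adjusted p 4.6e-15). Near-identical histone copies can split reads, so single members are uncertain. HIST1H3C, at 36.2, 32 and 27.7 CPM in WT and 0.557, 0.175 and 0.191 in KO, is such a case. The hairpin with a 6-base stem and a 4-base loop found in the greatest number of listed histone genes, by their GENCODE 29 coding transcripts, was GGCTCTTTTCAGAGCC. Searched exactly on the transcript strand, it was in 13 of 60 histone genes with a coding transcript (21.7%) and in 18 of 19684 coding genes (0.0914%); a gene without a match only lacks these letters in its model. Of the 13, 10 were called lower in the first fit. Sites of 4 members are shown because they share this core but differ in first-fit change. The core lies 40 bases before the end of the transcript model in HIST1H2BL and 39 in HIST1H2AI. In HIST1H2AC it lies 1114 bases before the end and in HIST2H2BE 1729, so these models run on past the stem-loop. Long models were not confined to such members: the core lies 769 bases before the end in HIST1H3H, 1640 in HIST1H2BH and 1917 in HIST3H2BB. Each of these had a more negative first-fit change than HIST1H2AE, where it lies 51 bases before the end. A link between this distance and the change was not tested. Capitals mark the core.
HIST1H2BL: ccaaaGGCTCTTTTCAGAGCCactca
HIST1H2AI: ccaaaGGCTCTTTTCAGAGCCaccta
HIST1H2AC: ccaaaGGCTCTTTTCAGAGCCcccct
HIST2H2BE: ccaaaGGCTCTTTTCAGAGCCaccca
HIST1H2BL fell by 2.60 on the log2 scale and HIST1H2AI by 2.52. HIST1H2AC (-0.09, edgeR adjusted p 0.57) and HIST2H2BE (0.23, edgeR adjusted p 0.12) were not called in the first fit. After subtraction HIST1H2AC stood at -0.85 and HIST2H2BE at -0.52, in a fit that called all 27 histone genes it tested lower. HIST2H2BE was at -0.63 among genes at 10 times background, where all 25 histone genes tested were called lower.

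Matrix genes split by member: 12 rose and 10 fell of 35, beside 28.1% and 18.3% over all genes. The list's median was 0.65 in the first fit and -0.04 after background subtraction. COL12A1, a fibril-associated collagen, stood at 848, 681 and 727 CPM in WT and 93, 283 and 89.9 in KO (log2 fold change -2.27, or -3.04 without KO replicate 2). FBN2, fibrillin 2 of embryonic microfibrils, rose from 818, 690 and 722 CPM to 2892.2, 3142.2 and 3238.6 (2.06). VCAN, the proteoglycan versican, rose by 1.64 and COL4A1, a basement membrane collagen, by 1.48. Of 15 smooth muscle and fibroblast genes 6 rose and 4 fell: PDGFRA (1.12) and ACTA2, smooth muscle actin (1.42), rose while PDGFRB fell. Among adhesion and guidance genes 11 rose and 4 fell of 29: CDH2, N-cadherin, rose from 206, 160 and 170 CPM to 1082.1, 1178.3 and 1175.3 (2.68), SLIT3, a guidance ligand, by 2.35 and NCAM1 by 2.01, and L1CAM fell by 0.88.

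Signalling genes were described by role, and their counts stand beside 28.1% that rose and 18.3% that fell over all genes. Those of the WNT, ERK feedback and retinoic acid lists lay near or under these shares. Among BMP and TGF-beta genes 12 rose and 6 fell of 25, with a median of 0.41 that became -0.06 with total counts. The ligand TGFB2 rose from 31.6, 33.8 and 38.6 CPM to 178, 227 and 208 (log2 fold change 2.56), the ligand BMP5 by 2.39, and TGFBI, a matrix target of TGF-beta, fell by 1.80 (-2.36 without KO replicate 2). The WNT ligand WNT11 rose by 2.08, within a list where 5 of 20 rose and 3 fell. The NOTCH receptor NOTCH4 fell by 1.05, within 5 of 13 that fell and 1 that rose. Immediate early and ERK feedback genes held 7 that rose and 3 that fell of 28. The inhibitors of ERK signalling SPRY4, from 11.6, 9.74 and 8.89 CPM to 64.9, 93.8 and 77.3 (2.96), and DUSP5 (2.08) rose, and the immediate early gene JUN fell by 1.10. Of 13 retinoic acid genes 3 rose and 3 fell. Of its enzymes, ALDH1A1 rose by 2.32 and ALDH1A3 fell by 1.46.

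Genes of RNA processing were examined because QKI is a splicing regulator. Of 25 tissue splicing regulators tested in both fits 15 rose and 1 fell (first-fit median 0.75). RBPMS, a muscle splicing factor, stood at 71, 54.2 and 56.5 CPM in WT and 300, 338 and 354 in KO (log2 fold change 2.45, SE 0.16, edgeR adjusted p 1.1e-13). RBM24 (2.29), RBM20, which controls titin splicing (1.90), RBFOX2 (1.74), CELF1 (1.59) and MBNL1 (1.37), all regulators of cardiac exons, rose, and SRRM4, a neural regulator near background, fell by 0.77. For the general RNA machinery the direction depended on the fit, and the shares that rose stand beside 28.1% over all genes. U1 snRNP proteins rose in 7 of 12 with none that fell, but at 10 times background 2 were called higher and 2 lower of 11 (median 0.09). Tri-snRNP proteins rose in 5 of 24 with none that fell; their median of 0.51 became -0.15 after subtraction, and at 10 times background 2 were called higher and 13 lower of 18. Nuclear export and RNA decay genes rose in 14 of 35 with none that fell, with a median of 0.77 that was -0.09 at 10 times background, where 5 were called higher and 8 lower of 22. SR proteins and hnRNPs rose in 9 of 29 with none that fell; their median was 0.76 in the first fit, 0.01 after subtraction (8 called lower) and -0.13 at 10 times background (3 called higher and 11 lower of 27). SRSF11 rose by 1.16. HNRNPA1 was called in opposite directions, 0.38 in the first fit and -0.37 after subtraction, so no direction is given; its first-fit call was also lost without KO replicate 2 (0.26) or 3 (0.45) and without WT replicate 2 (0.26) or 3 (0.27), and was 0.58 without WT replicate 1.

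RNAs that stay in the nucleus were tested in the first fit alone. Of 11, 7 were called higher and 3 lower (median 0.99). Over all genes tested 31.2% were called higher and 32.8% lower. Among all genes of at least 100 CPM, the class of MALAT1 and NEAT1, 84.5% were called higher with a median of 1.0. MALAT1, a nuclear speckle RNA, stood at 6833.8, 5197.4 and 5432.0 CPM in WT and 14159.5, 18637.3 and 16655.5 in KO (log2 fold change 1.50, SE 0.33, edgeR adjusted p 0.00033). TUG1 (1.46) and KCNQ1OT1 (0.99) were called higher and MEG3 lower (-1.19), the last at 1.08 times background. All 13 listed mitochondrially encoded genes were called higher (median 0.96), beside 84.5% of all genes of at least 100 CPM (median 1.0). With total counts 11 were called higher (median 0.53), and in the fit of genes of at least 10 CPM 6 were (median 0.31). Of all 36 genes of the mitochondrial genome tested, 19 were called higher and none lower. MT-CO1, a respiratory chain subunit, stood at 3470.9, 2484.3 and 2609.1 CPM in WT and 6853.6, 7300.2 and 6632.9 in KO. The mitochondrial genome held 1.64% ± 0.271 of WT counts and 2.58% ± 0.24 of KO counts (SD, n = 3), against 6.83 to 9.73% in whole-cell RNA.

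Apart from hypoxia and glycolysis genes, housekeeping and stress lists gave no common direction across fits. Cytosolic ribosomal protein genes had a median of 0.28 in the first fit, -0.17 with total counts and -0.45 after subtraction, with 2 that rose and 2 that fell of 85. The first fit called 30 higher and 2 lower, and the fit after subtraction 2 higher and 68 lower. At 10 times background 1 was called higher and 72 lower of 79 (median -0.57). Endoplasmic reticulum stress genes had none that rose or fell of 16, and their median of 0.27 became -0.51 after subtraction and -0.10 without KO replicate 2. The first fit called 5 higher and none lower, and the fit after subtraction 10 lower and none higher. Of 18 p53 response genes 5 rose and none fell, a share near the 28.1% of all genes, among them CDKN1A, a cell cycle inhibitor, from 32.9, 33.4 and 38.8 CPM to 106, 112 and 119 (1.68), and RPS27L (1.13); the list's median was 0.76, and -0.06 at 10 times background. Of 17 hypoxia and glycolysis genes 9 rose, with LDHA, lactate dehydrogenase, at 1.63, and 2 fell. Their median was 0.92 in the first fit, 0.35 after subtraction and 0.42 at 10 times background. Among imprinted genes 10 of 14 rose, with SNRPN at 1.75 and a median of 0.46 that was -0.01 with total counts; MEST was called at -0.49, lost without KO replicate 1 (-0.30), KO replicate 3 (-0.37) or WT replicate 1 (-0.39). Clustered protocadherins, alternative cell recognition proteins, were read near background here, and their balance depended on the fit. Of 51 in the first fit 20 were called higher and 8 lower (median 0.45), and with total counts 11 higher and 12 lower (median 0.00). After subtraction 24 were called higher and 1 lower of 28 (median 2.43), and 17 rose and 1 fell. A gene at background in WT can enter that fit through KO, so this is not read as a direction of the list.

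The genotype difference was then compared between nuclear and whole-cell RNA in 1 model over the 12 day 8 libraries. The interaction, the nuclear log2 fold change minus the whole-cell one, was called for 10325 of 36811 genes (28%), 6066 higher and 4259 lower. Higher genes were 58.8% of these calls, and 74.1% of 11699 with TMM factors computed within each table. In whole-cell RNA itself 12097 of 21761 genes were called (55.6%), with 52.9% of calls higher, or 37.6% with total counts. Over 4780 coding genes at 10 times background the 2 fold changes had a Pearson correlation of 0.46 and a Spearman correlation of 0.34 across genes, given as a description since genes are not replicates. Of these, 852 were higher in both fractions, 425 lower in both, 179 higher in nuclear and lower in whole-cell RNA, and 449 the reverse.

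**Figure D5:**
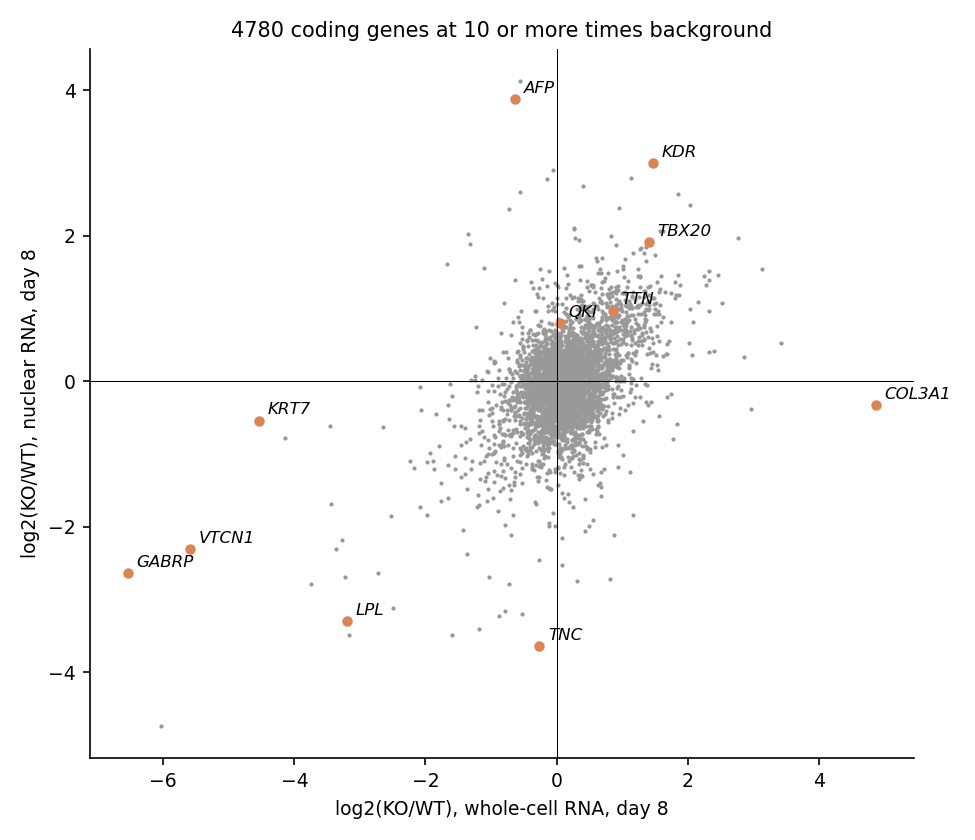
Log2 fold change of KO against WT in whole-cell RNA (x axis) and nuclear RNA (y axis) for 4780 coding genes at 10 or more times background, each on its own scaling; named genes are in orange. Most points lie near the centre, COL3A1 lies far to the right with a nuclear value of -0.33, and TNC lies far down with a whole-cell value of -0.26.

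Of the 8 highest interactions, all but AFP belonged to genes far lower in KO whole-cell RNA, with smaller differences in nuclear RNA. TFAP2A stood at 134, 177 and 207 CPM in WT whole-cell RNA and 1.99, 0.964 and 1.42 in KO, while its nuclear levels were 43.2, 30.6 and 30.1 in WT and 15.6, 21.4 and 13 in KO (interaction 5.56, SE 0.27, edgeR adjusted p 2.3e-15). MEG3 (5.14), the transporter ABCG2 (4.61) and GABRP (4.53) were likewise called lower in both. In nuclei MEG3 stood at 1.08 times background and TFAP2A at 4.56. TRIML2 (4.60) and KRT7 (4.62) were lower in whole-cell RNA, with first-fit nuclear values of -0.42 (edgeR adjusted p 0.027) and 0.37 (edgeR adjusted p 0.097). ZNF558, a zinc finger gene, had 8834 counts in WT whole-cell RNA and 2 in KO, against 25.5, 24.7 and 24.5 CPM in WT and 21.8, 27.6 and 24.3 in KO nuclei, where the first fit made no call (-0.01, edgeR adjusted p 0.92) and the fit after background subtraction called it lower (-0.54, edgeR adjusted p 0.0019); its fitted interaction of 11.05 depends on the prior count. AFP differed by its nuclear rise (5.13), with whole-cell means of 43.1 CPM in WT and 27.8 in KO.

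The 8 lowest interactions were taken, like the 8 highest, among genes of at least 10 CPM in both tables. COL3A1, a fibrillar collagen, was at 10.8, 14.1 and 9.09 CPM in WT whole-cell RNA and 348, 368 and 286 in KO, but at 1454.7, 801 and 896 in WT nuclei and 1068.4, 2534.7 and 1072.4 in KO nuclei (interaction -4.60, SE 0.32, edgeR adjusted p 4.8e-12). COL6A3 (-2.67) was also higher in KO whole-cell RNA (2.33), with no call in the first nuclear fit (-0.06) and a lower call after subtraction (-0.69). PDGFRB (-3.25) and TNC (-2.77) fell in nuclei, while no whole-cell difference was called (0.22 and -0.26). DPP6 (-3.02), FAM13C (-2.85), ENPP2, the enzyme autotaxin (-2.75), and GPR124, a WNT co-receptor (-2.57), were higher in KO whole-cell RNA. In nuclei DPP6 stood at 1.64, ENPP2 at 2.21, FAM13C at 2.98 and GPR124 at 5.49 times background. That background was denser in WT, and its part in these interactions was not tested. The levels of these genes in WT nuclei and WT whole-cell RNA come from separately counted tables, so only differences within a table were compared.

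A set of 23 genes was nearly absent from whole-cell KO RNA, defined after seeing the data as at least 10 CPM in WT and at least 30 times less in KO. In nuclear RNA 18 of them were called lower, none higher and 5 not called, and 13 fell in both fits. Over all genes tested 32.8% were called lower, and between 42.8 and 52.8% in the abundance classes under 10 CPM. KCNJ2, an inward rectifier channel, had 3180 whole-cell counts in WT and 64 in KO, and was not called in the first nuclear fit (-0.16, edgeR adjusted p 0.35), but was called lower after subtraction (-0.74, edgeR adjusted p 0.0044) and without KO replicate 2 (-0.35, edgeR adjusted p 0.031). CHCHD2 was low in KO in both fractions, with whole-cell means of 97 CPM in WT and 1.49 in KO. The choice of these genes used the whole-cell values, so their interactions are not read as evidence.

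Gene properties that the comparison did not use were set beside the nuclear change, on the coding genes at 10 times background. From the shortest sixth of gene bodies (0.373 to 8.51 kb) to the longest (110 to 2298.5 kb) the median log2 fold change ran from -0.26 to 0.20. In the shortest sixth 14.8% were called higher and 50.1% lower, and in the longest 48.9% higher and 16.5% lower. In whole-cell RNA the same sixths had medians of 0.27 and 0.09. Chromosome medians ran from -0.21 on chromosome 19 to 0.11 on chromosomes 10 and 21.

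Genes with a changed exon were described from the authors' deposited table of skipped exons at day 8, a whole-cell readout whose arms are not named. Events were taken from the authors' deposited table at their FDR under 0.05 and an inclusion difference of at least 0.1. They also had to pass a coverage filter of 10 reads per library. This left 1768 events in 1151 genes. Of the 464 event genes at 10 times background, 208 were higher and 88 lower in nuclear RNA, 63.8% in all with a median of 0.15. Of 3929 genes with a measured exon and no event, 58.4% were called, with a median of -0.03, beside 59.5% over all 4783 genes. With a difference of at least 0.2 in the authors' deposited table, 254 such genes had 66.5% called and a median of 0.17. No test of this difference was run.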

How the data were processed

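RNA was poly(A)-enriched and libraries were made with stranded Illumina mRNA kits, per the labels' protocols. The authors deposited raw read counts per gene; cutadapt, UMI-tools, STAR, featureCounts, DESeq and the build hg19 are named in the submitters' processing notes, without versions; strand setting and annotation were not stated there. The authors deposited skipped-exon tables with inclusion as a fraction and an FDR derived from each p-value, per the file headers. The difference in inclusion is a score between the arms, as the authors deposited it.

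The counts entered edgeR 4.0.16 (R 4.3.3, limma 3.58.1): genes passed filterByExpr, libraries were scaled by TMM, and glmQLFTest was used, a quasi-likelihood test, two-sided, with Benjamini-Hochberg adjustment over all genes fitted; DESeq2 1.42.0 was an alternative. The nuclear libraries were fitted alone, the day 8 whole-cell contrast within all whole-cell libraries, and the interaction over the 12 day 8 libraries. Of 55548 nuclear identifiers 91.6% were in GENCODE 29, which gave classes and exon lengths. For background subtraction, the median read density of 345 olfactory receptor genes times exon length was taken from each coding gene's counts, and the result rounded. Tested on counts simulated for the nuclear comparison (28284 genes), the fit recovered 32.8% of 1.5-fold, 86.6% of 2-fold and 100% of 4-fold changes with 10 false calls. The simulated counts held no background that differed by genotype, and only a small part of the genes was changed, evenly in both directions. These rates therefore do not measure the errors of the fit in the real libraries. The members and gene lists were chosen with earlier results of these data known. Named genes were QKI, the 15 highest and 15 lowest fold changes among called genes of at least 10 CPM without overlap, the 8 highest and 8 lowest interactions, and at most 6 full accounts per list by size or as a defining marker; a few further genes of the lists were named after their values were seen. Background subtraction, the fits on coding genes, the summed WT libraries and the within-table factors were chosen after seeing the data. Y-linked genes and X-inactivation transcripts are not reported here.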

Additional observations from a re-analysis of the deposited data

Results flagged for a closer look

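The genotype difference itself differed between nuclear and whole-cell RNA, by edgeR's interaction test at an adjusted p under 0.05, for 34 genes among QKI, the 30 genes ranked by nuclear fold change and the 16 ranked by the interaction; genes named from lists are not included. Values are the nuclear minus the whole-cell log2 fold change of KO against WT. It was higher in nuclear RNA for QKI 1.34, ZNF558 11.05, TFAP2A 5.56, MEG3 5.14, AFP 5.13, KRT7 4.62, ABCG2 4.61, TRIML2 4.60, GABRP 4.53, SPINK1 5.30, KDR 2.12, PRSS42 3.54, HKDC1 3.53, APOA1 2.26, APOA2 2.90, SERPINA1 3.76, PALM2 1.32, PRSS44 3.60, FGB 3.72, RSPO3 0.98, HAS2 2.03, NEAT1 2.95, CHCHD2 1.89 and LPL 0.50. It was lower in nuclear RNA for COL3A1 -4.60, PDGFRB -3.25, DPP6 -3.02, FAM13C -2.85, TNC -2.77, ENPP2 -2.75, COL6A3 -2.67, GPR124 -2.57, HIST1H4I -2.70 and HIST1H3F -3.43. The value of ZNF558 rests on 2 whole-cell counts in KO, and those of SPINK1, HKDC1 and the histone genes on whole-cell levels under 1 CPM. For QKI, the nuclear libraries labelled KO were above the WT ones while the whole-cell libraries were not told apart. Background share, depth and KO replicate 2 move with the nuclear contrast, and their part in these differences was not tested.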

How the results depend on the processing

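The count of nuclear calls was 19515 and stayed within 1.5 times of that with total counts, DESeq2's size factors, no filter, thinning, no mitochondrial genes, WT replicates 2 and 3 summed and each library left out (16619 to 21144). It was 11049 in DESeq2, 6740 at a mean of at least 10 CPM, 12984 on coding genes alone, 8693 after background subtraction and 2844 at 10 times background; all but DESeq2 fitted fewer genes, and the cause was not tested for DESeq2. The interaction count of 10325 was 4957 at 10 CPM in each table and 2570 at 10 times background, and 9018 to 10486 with a library left out. Whole-cell calls ran from 10527 to 12017 with a library left out, and were 10804 with the day 8 libraries fitted alone, against 12097. Event genes numbered 584 at a difference of 0.2 against 1151. QKI ran from 1.53 to 1.83 with a nuclear library left out and from 0.80 at 10 times background to 2.0 in DESeq2 over all settings (1.01 at 10 CPM).

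With the replicate number as a block, the counts were 18250 nuclear, 8591 interaction and 12322 whole-cell calls, and QKI was 1.67. Same-numbered nuclear libraries correlated in their deviations at -0.187, -0.158 and 0.019, so the numbers were not taken to pair them, and not every library correlated best with its own number.

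Over 126 named genes and all alternatives, 2095 of 2185 nuclear values kept their direction and side of the threshold, 48 lost the call, 34 gained it and 8 reversed: CDH1 to -0.52 at 10 times background, and HNRNPA1 to -0.06 with total counts, -0.28 at 10 CPM, -0.37 after subtraction and -0.48 at 10 times background, and HIST2H2BE to -0.42 at 10 CPM, -0.52 after subtraction and -0.63 at 10 times background. All 277 values of the 16 interaction genes kept theirs. Of the named genes, ISL1, NR2F2, KRT18, MEST, HNRNPA1 and RMRP lost their call on leaving out a library, and GABRP, VTCN1, GRHL2, TEK, JUN, SRRM4 and TGFBI lost theirs in DESeq2. Background of 3.44 to 19.53% of coding counts limits genes of low level most.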
